A study of Homo sapiens with 13 samples.

Results

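The 9 genes described here build and regulate the MHC class I antigen presentation machinery: the heavy chains HLA-B, HLA-C, HLA-E and HLA-F, the light chain B2M, the peptide transporter subunits TAP1 and TAP2, the loading factor TAPBP and the transactivator NLRC5. They were chosen by symbol, matched to the Ensembl identifiers of the count table, and make up 9 of its 43836 genes. The rule used no measured value, and all 9 were among the 17092 genes that passed the filter on low counts. The cells were hFOB 1.19 osteoblasts, an immortalized human fetal osteoblast line that carries a temperature-sensitive large T antigen, so every group shared the HLA alleles of 1 line. The positive control (PC) was grown with 10% FBS (fetal bovine serum), and the negative control (NC) was serum-starved. RES, POG and DEG were serum-starved cells given a compound at 1 µg/mL: resveratrol, a stilbene, for RES, and peonidin-3-O-glucoside, an anthocyanin, for POG. The treatment text also names delphinidin-3-glucoside, but the labels do not tie it to DEG. There were 3 libraries each for RES and POG and 2 each for PC, NC and DEG. The third DEG sample was not analysed here.

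MHC class I molecules are carried by nearly all nucleated cells and display peptides cut from proteins made inside the cell to CD8+ T cells and natural killer cells. Peptides made by the proteasome are pumped into the endoplasmic reticulum by the TAP1-TAP2 transporter, and tapasin (TAPBP) holds an empty heavy chain and B2M beside the transporter until a fitting peptide is bound. Interferons raise these genes through STAT and IRF factors, and NLRC5 drives them as a coactivator that binds no DNA itself but sits on an assembly of RFX, CREB/ATF and NF-Y proteins at the promoter.

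Of the 9 genes, 7 lie in the MHC region of chromosome 6, and all are annotated as protein coding (build hg38, GENCODE v44). HLA-F (ENSG00000204642) is at chr6:29722775-29738528 and HLA-E (ENSG00000204592) at chr6:30489509-30494194, both on the plus strand. HLA-C (ENSG00000204525) is at chr6:31268749-31272130 and HLA-B (ENSG00000234745) at chr6:31353872-31367067, on the minus strand. TAP2 (ENSG00000204267) is at chr6:32821833-32838739, TAP1 (ENSG00000168394) at chr6:32845209-32853816 and TAPBP (ENSG00000231925) at chr6:33299694-33314284, also on the minus strand. B2M (ENSG00000166710) is at chr15:44711358-44718851 and NLRC5 (ENSG00000140853) at chr16:56989485-57083531, both on the plus strand.

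Promoter sequences from RefSeq (GRCh38.p14) were given for 7 of the 9 genes, with none for HLA-E and NLRC5. Each window ran from 250 bases before to 50 bases after the start, and 4 are shown without their last 50 bases, since these genes moved together with serum and TAPBP parted from the others with RES. Capitals mark matches, on either strand, to the IRF core (GAAA, any 2 bases, GAAA), the Y box CCAAT bound by NF-Y, the CRE core TGACG bound by CREB/ATF proteins, and the shorter IRF motif AANNGAAA, which lies within every IRF core and was added after the sequences were seen. The windows are at chr6:31357180-31357429 (minus strand) for HLA-B, chr15:44711267-44711516 (plus) for B2M, chr6:32853705-32853954 (minus) for TAP1 and chr6:33314079-33314328 (minus) for TAPBP.
HLA-B: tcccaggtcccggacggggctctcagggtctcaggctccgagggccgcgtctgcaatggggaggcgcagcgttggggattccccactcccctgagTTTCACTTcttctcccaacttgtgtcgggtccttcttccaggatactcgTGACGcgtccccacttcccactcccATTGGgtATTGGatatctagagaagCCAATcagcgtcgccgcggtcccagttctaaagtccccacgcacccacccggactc
B2M: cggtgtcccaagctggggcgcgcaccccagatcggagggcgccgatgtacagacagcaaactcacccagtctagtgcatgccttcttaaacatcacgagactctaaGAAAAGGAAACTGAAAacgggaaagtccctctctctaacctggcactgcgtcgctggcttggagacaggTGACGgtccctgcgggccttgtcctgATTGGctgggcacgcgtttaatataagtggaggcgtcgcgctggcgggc
TAP1: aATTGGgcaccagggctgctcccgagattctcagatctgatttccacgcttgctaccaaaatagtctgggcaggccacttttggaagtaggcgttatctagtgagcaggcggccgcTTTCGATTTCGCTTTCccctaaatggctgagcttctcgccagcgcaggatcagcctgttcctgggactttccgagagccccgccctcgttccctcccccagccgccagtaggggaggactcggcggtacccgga
TAPBP: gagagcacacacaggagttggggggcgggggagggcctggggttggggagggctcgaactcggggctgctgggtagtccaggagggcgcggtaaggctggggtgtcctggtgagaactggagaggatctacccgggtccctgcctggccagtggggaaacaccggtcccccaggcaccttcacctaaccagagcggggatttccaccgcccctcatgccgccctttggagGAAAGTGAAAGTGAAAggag
The IRF core was found in HLA-F, B2M, TAP1, TAP2 and TAPBP and in 3.57% of the 35116 promoter windows of that length. HLA-B and HLA-C held the shorter IRF motif without the core, at -155 to -148 and -151 to -144 from the start, a motif in 22.8% of windows. HLA-B and B2M carry the Y box and the CRE core together, as HLA-C does. HLA-F and TAP1 had the Y box without the CRE core, and TAP2 had the CRE core without the Y box. The Y box stood in 34.6% and the CRE core in 24.6% of all windows. TAPBP had neither, and its 2 overlapping IRF cores ended 5 bases before the start. The GAS motif TTCNNNGAA, bound by STAT dimers, was found in 7.66% of windows and, among these genes, in 1 alternative TAP1 start. These are matches of letters in the reference sequence, not measured binding.

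Library totals ran from 38464619 to 51416358 counted reads. The 10 osteoblast markers summed to 4797 to 5310 CPM (read counts scaled by library size). COL1A1, COL1A2 and SPARC, collagen chains and a matrix protein of bone, dominated this sum. RUNX2 had 1779 to 2333 reads per library. The other markers were low: ALPL had 131 to 326 reads, SPP1 43 to 104, BGLAP 19 to 90 and DLX5 28 to 81. SP7, a transcription factor of osteoblast differentiation, had 0 to 8 reads and IBSP 0 to 1. The 7 leukocyte markers summed to at most 2.34 CPM, 6 of them stayed under 1 CPM and CD3E had 0 reads. HLA-B alone had at least 1810 CPM on the same scaling. The labels do not say whether replicates were separate cultures, so p-values measure only the spread between these samples, which may be technical. These are bulk samples, in which fewer cells of a type and less RNA per cell cannot be told apart.

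The levels of the 9 genes spanned a wide range. B2M, the light chain shared by all class I molecules, had the highest level per length in NC at 712 ± 14.7 CPM per kb of exon (SD, n = 2). HLA-B followed at 566.7 ± 11.2 and HLA-C at 520.6 ± 3.17. These are the classical heavy chains, which present peptides to CD8+ T cells. HLA-E, a nonclassical chain that displays leader peptides of other heavy chains to natural killer cells, had 182.0 ± 2.25 CPM per kb. TAPBP stood at 90.9 ± 0.776 CPM per kb, HLA-F, another nonclassical chain, at 37.8 ± 1.20, and TAP1 at 35.1 ± 1.17. NLRC5 at 7.29 ± 0.0391 and TAP2 at 3.17 ± 0.0477 CPM per kb were the lowest. No 2 neighbours in this order overlapped between the NC libraries, and the order was the same when the longest transcript replaced the union of exons. In PC, by contrast, HLA-B (404.6 to 446.5) and HLA-C (392.4 to 428.6) overlapped, and HLA-F (21.9 to 24.8) lay under TAP1 (27.4 to 27.6). The order of HLA-F and TAP1 held for the union of exons but not for the longest transcript, where the PC means were 65.3 for HLA-F and 46.6 for TAP1. How close HLA-B and HLA-C lie depends on the length used, with 4623 bases of exon for HLA-B and 2507 for HLA-C. Their Ensembl canonical transcripts have 1536 and 1542 bases. Without division by length, the PC means were 1967 CPM for HLA-B and 1029 for HLA-C.

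**Figure D1:**
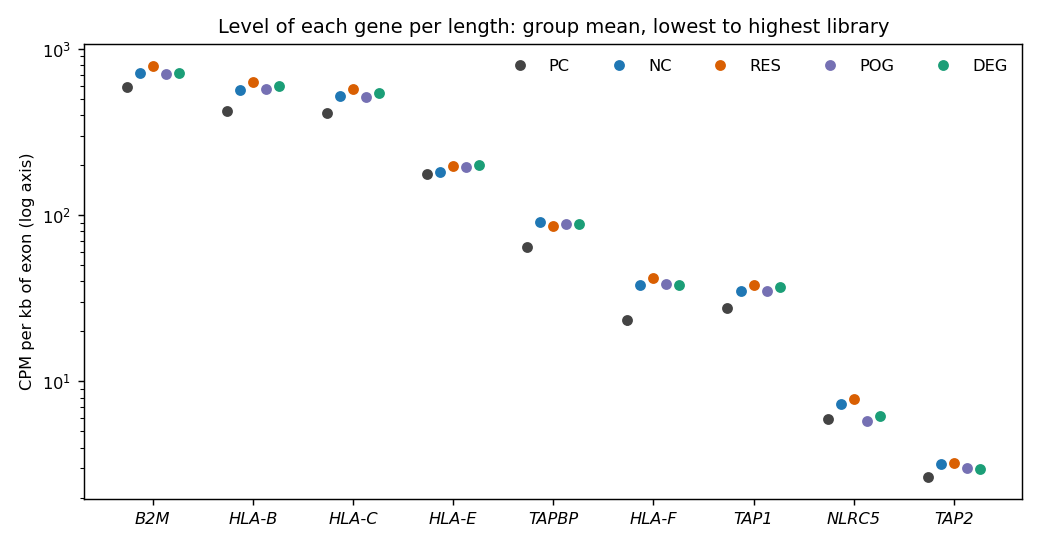
Level of each gene in CPM per kb of exon (y axis, log scale) in the 5 groups, with the group mean as a point and a line from the lowest to the highest library, mostly hidden by the point. B2M, HLA-B and HLA-C lie highest in every group, and NLRC5 and TAP2 lie lowest.

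Together the 9 genes took 0.769% ± 0.00990 (SD, n = 2) of counted reads in NC, 0.591% ± 0.0272 in PC (n = 2), 0.857% ± 0.000700 in RES (n = 3), 0.780% ± 0.00140 in POG (n = 3) and 0.804% ± 0.00566 in DEG (n = 2). HLA-B ranked 6 among all genes by reads in each RES library, 12 and 13 in NC, and 25 and 27 in PC. Its rank was 11 in each POG library and 9 in each DEG library.

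Some counts carry an uncertainty of assignment, since the strand setting and the treatment of multi-mapped reads were not given in the sources used here. HLA genes are highly polymorphic, and reads of the line's own alleles were aligned to the reference alleles. In the reference, no stretch of 100 bases of these transcripts was shared between any of the 9 genes, and the share found in other genes was 0.277% for HLA-C and 0.612% for HLA-E. For TAP2 it was 34.7%, all with a read-through gene that overlaps it on the same strand and had 0 reads in every library. HLA-F, TAP1 and HLA-B overlap the opposite-strand genes HLA-F-AS1 (105 to 207 reads per library), PSMB8-AS1 (371 to 547 reads) and ENSG00000271581 (141 to 336 reads). HLA-B also shares 1421 exonic bases with DHFRP2, a pseudogene on the same strand that had 0 to 1 reads. In all, 47.3% of the exonic bases of HLA-B and 21% of those of TAPBP are shared with other genes. The levels per kb make no allowance for shared bases.

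**Figure D2:**
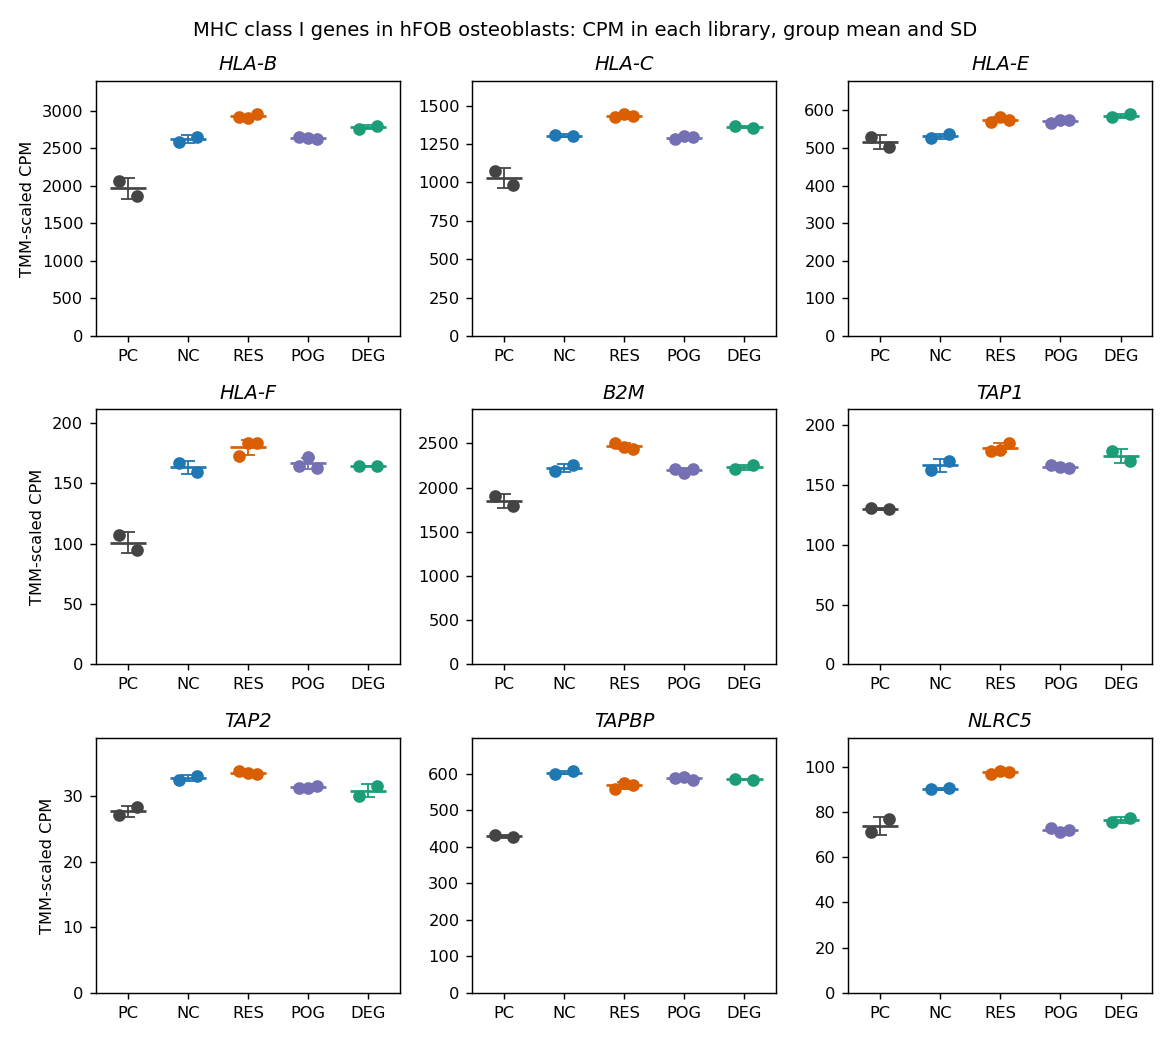
TMM-scaled CPM of each of the 9 genes (y axes from 0, each gene on its own scale) in the 12 libraries, with 1 point per library, the group mean as a bar and the SD as an error bar. PC lies below NC for every gene but HLA-E, RES lies above NC for every gene but TAPBP, and POG and DEG stand apart from NC most for NLRC5.

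The comparison of PC with NC asks what serum does to these cells. With serum, 8 of the 9 genes were lower: HLA-B, HLA-C, HLA-F, B2M, TAP1, TAP2, TAPBP and NLRC5, at 61.8% to 84.5% of their NC means. HLA-F and TAPBP fell furthest, and HLA-E alone did not pass the test, though with plain library totals in place of TMM scaling all 9 were called lower. Of all genes tested, 42.4% were called in this comparison at an edgeR FDR (false discovery rate) under 0.05 and 20.9% were lower, and 57.1% were called of the 9912 genes that averaged at least 10 CPM, as these 9 do. The median log2 fold change was -0.34 over the 9 genes and -0.0059 over all genes tested.

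Among the heavy chains, HLA-B had 2064 and 1870.4 CPM (TMM-scaled, as are all levels below) in the PC libraries and 2584 and 2657 in the NC libraries. It fell by 0.41 on the log2 scale (SE 0.0295, FDR 4.70e-25). The PC libraries lay apart below those of NC, although they differed from each other more than the NC libraries did. HLA-C had 1075 and 984 CPM in PC against 1311 and 1299.6 in NC, and fell by 0.34 (SE 0.0295, FDR 1.08e-18). HLA-F, at 107 and 94.5 CPM in PC against 167 and 159 in NC, showed the strongest fall of the 9 genes, by 0.69 (SE 0.0456, FDR 2.69e-44). HLA-E, in contrast, had 529 and 504 CPM in PC and 527 and 537 in NC. The groups overlapped, and its log2 fold change of -0.04 had a 95% interval of -0.10 to 0.02 (FDR 0.355), which lies wholly above the intervals of HLA-B, HLA-C and HLA-F.

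The light chain B2M had 1908 and 1789 CPM in PC and 2189.7 and 2255 in NC, and fell by 0.27 (SE 0.0272, FDR 3.31e-12). In the peptide transporter, TAP1 fell by 0.36 (SE 0.0367, FDR 3.24e-17), from 162 and 170.3 CPM in NC to 131 and 129.6 in PC. TAP2 fell by 0.25 (SE 0.0555, FDR 9.25e-05), from 32.5 and 33.2 CPM to 27.1 and 28.3. The 2 subunits work as a pair, and both moved the same way. TAPBP, which tethers the heavy chain to that transporter, had 600.3 and 608 CPM in NC and 433 and 427 in PC, a fall of 0.49 (SE 0.0280, FDR 1.47e-45). NLRC5 had 71.0 and 76.7 CPM in PC and 89.9 and 90.6 in NC, and fell by 0.29 (SE 0.0422, FDR 1.10e-09). The PC and NC libraries did not overlap for any of these 5 genes, as was so for 65.6% of all genes tested. Marker sums of other cell types were higher in PC than in NC: 1.97 to 2.22 against 1.72 to 1.85 CPM for the 7 leukocyte markers, 17.1 to 19.4 against 8.19 to 8.77 for the 4 endothelial markers (mostly TIE1) and 449 to 486 against 395 to 403 for the 4 epithelial markers (KRT8 and KRT18, with EPCAM at 7 to 23 reads in every library). The osteoblast sum was 5287 to 5310 CPM in PC and 5232 to 5286 in NC. The part of these sums in the result was not tested.

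**Figure D3:**
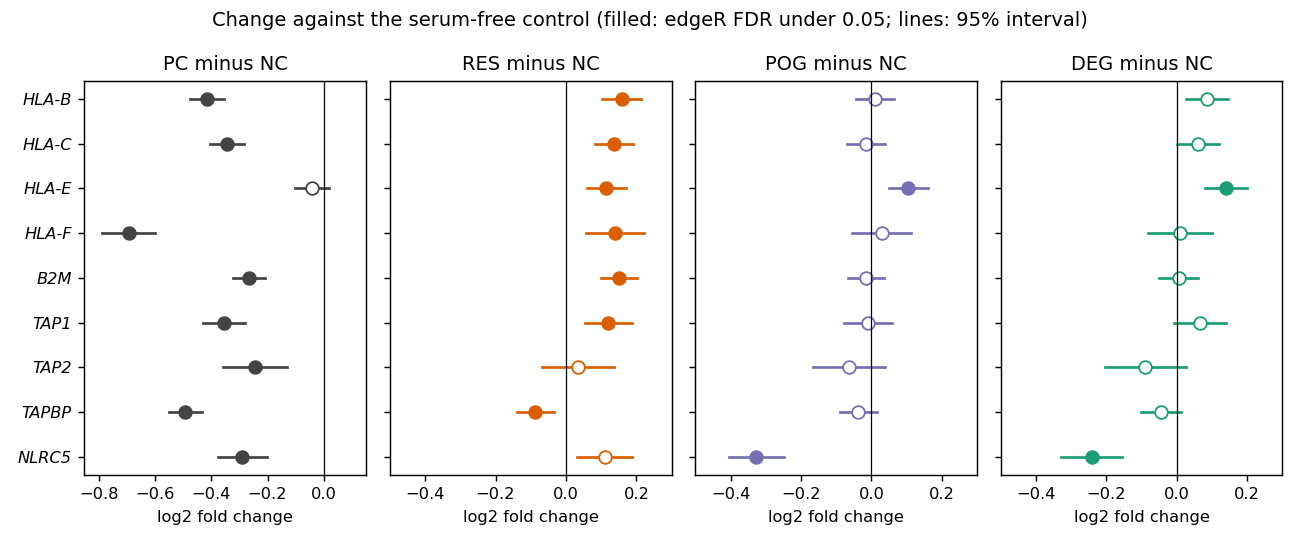
log2 fold change of each gene against NC (x axis, whose range is wider for PC) in PC, RES, POG and DEG. Points are edgeR estimates, filled where the FDR is under 0.05, and lines are 95% intervals: 8 genes lie below 0 in PC, 6 above and 1 below in RES, and HLA-E above and NLRC5 below in POG and DEG.

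The comparison of RES with NC asks what resveratrol changes in serum-starved cells. All 4 heavy chains, B2M and TAP1 rose, by 8.26% to 11.6%, while TAPBP was lower. TAP2 and NLRC5 did not pass the test. The 7 genes called, 6 higher and 1 lower, compare with 11.2% of all genes tested, 4.94% called higher and 6.25% called lower. Among genes with at least 10 CPM these shares were 15.8% in either direction and 6.12% higher. Of all calls in this comparison 44.1% were increases, and 64% with plain library totals in place of TMM. The median log2 fold change was 0.12 over the 9 genes and 0.0011 over all genes.

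HLA-B had 2914, 2905 and 2953 CPM in the RES libraries, against 2584 and 2657 in NC. It rose by 0.16 on the log2 scale (SE 0.0270, FDR 0.000254), and every RES library lay above both NC libraries. HLA-C, at 1426, 1443 and 1435 CPM, rose by 0.14 (SE 0.0269, FDR 0.00150). HLA-E, at 570.4, 583 and 574 CPM, rose by 0.11 (SE 0.0268, FDR 0.00668). HLA-F, at 173, 183 and 183 CPM, rose by 0.14 (SE 0.0406, FDR 0.0174). The intervals of the heavy chains all overlapped, so that no difference in the size of their rise was resolved. B2M, the partner of all of them, had 2508, 2458 and 2439 CPM and rose by 0.15 (SE 0.0249, FDR 0.000174). TAP1 had 178, 179 and 185 CPM and rose by 0.12 (SE 0.0332, FDR 0.0134). TAP2, its partner subunit, had 33.8, 33.6 and 33.4 CPM, with a log2 fold change of 0.03 (95% interval -0.07 to 0.14, FDR 0.777).

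TAPBP went the other way. Its RES libraries had 559, 576 and 571 CPM, below both NC libraries at 600.3 and 608. The log2 fold change was -0.09 (SE 0.0254, FDR 0.0447), a call that 8 of 12 alternatives lost, among them plain library totals. NLRC5 had 96.8, 97.9 and 97.5 CPM in RES, above both NC libraries, and a log2 fold change of 0.11 (SE 0.0381) that missed the threshold at an FDR of 0.0537 and passed it in 3 of 12 alternatives, plain library totals among them. The RES and NC libraries did not overlap for any of the 9 genes, which held for 40.9% of all genes tested.

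These RES results rest on the pair of NC libraries. Without NC replicate 1, 1 of the 9 genes was called (HLA-C), and without NC replicate 2, 3 were (HLA-B, B2M and TAP1). Without RES replicate 3, 4 were called. No rise changed sign in any of these fits. Marker sums differed between the groups as well. The leukocyte sum was 1.72 to 1.85 CPM in NC and 2.26 to 2.34 in RES. The endothelial sum was 8.19 to 8.77 in NC and 13.3 to 14.6 in RES, and the epithelial sum 395 to 403 and 449 to 459. The osteoblast sum went the other way, with 5232 to 5286 CPM in NC and 4976 to 5093 in RES. The part of these sums in the result was not tested.

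The comparisons of POG and of DEG with NC ask the same for the other compounds. In each, 2 of the 9 genes were called, HLA-E higher and NLRC5 lower. NLRC5 fell to 79.7% of the NC mean in POG and to 84.5% in DEG, and HLA-E rose to 107.5% and 110.2%. The other 7 genes did not pass the test in either comparison, with log2 fold changes between -0.09 and 0.09. Of all genes tested, 14.6% were called for POG (5.98% higher, 8.6% lower) and 9.64% for DEG (3.52% higher, 6.11% lower), and of genes with at least 10 CPM 20.1% and 13.8%. Increases were 41% of the POG calls and 36.6% of the DEG calls, and 56% and 49.4% with plain library totals. All comparisons with NC share the same 2 NC libraries, so the POG and DEG values are given side by side and not as support for each other.

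NLRC5, the class I transactivator, had 72.7, 71.0 and 72.1 CPM in the POG libraries and 75.4 and 77.2 in the DEG libraries, against 89.9 and 90.6 in NC. All POG and DEG libraries lay under both controls. Libraries lay apart from NC, in either direction, for 44.1% of all genes tested in POG and 51.8% in DEG. The log2 fold change was -0.33 for POG (SE 0.0384, FDR 1.45e-13) and -0.24 for DEG (SE 0.0426, FDR 5.09e-06). These calls held under every alternative run, with an FDR of at most 2.51e-07 for POG and 0.00471 for DEG.

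HLA-E, the ligand of the natural killer receptor pair NKG2A and CD94, had 567, 575 and 574 CPM in POG and 582 and 589.7 in DEG, against 527 and 537 in NC. It rose by 0.10 (SE 0.0268, FDR 0.0122) in POG and by 0.14 (SE 0.0293, FDR 0.00196) in DEG. The treated libraries did not overlap with NC, as was so for 44.1% of all genes tested in POG and 51.8% in DEG. The POG call was lost in 4 of 12 alternatives (FDR up to 0.204, without NC replicate 1) and the DEG call in 2 of 11 (up to 0.0859, without NC replicate 1).

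HLA-B, HLA-C, B2M and TAP1, genes that NLRC5 is known to activate, were not called beside it. HLA-B had 2651, 2636 and 2628 CPM in POG, among the NC libraries at 2584 and 2657, and its log2 fold change of 0.01 had a 95% interval of -0.04 to 0.07. HLA-C (interval -0.07 to 0.04), B2M (-0.07 to 0.04) and TAP1 (-0.08 to 0.06) were likewise close to 0 in POG. In POG the intervals of these 4 genes lay above that of NLRC5 (-0.41 to -0.25). Whether the NLRC5 level bears on theirs was not tested. In DEG, HLA-B had 2762 and 2801 CPM, above both NC libraries, with a log2 fold change of 0.09 (FDR 0.161). B2M had 2208 and 2253 CPM in DEG, with an interval of -0.05 to 0.06. In the same comparisons the epithelial marker sum was lower than in NC (341 to 351 CPM in POG and 366 to 372 in DEG). The endothelial sum was higher (9.97 to 10.2 and 10.1 to 10.3). The leukocyte sum was 1.10 to 1.76 in POG and 1.56 to 1.59 in DEG. The osteoblast sum was 4802 to 4839 CPM in POG and 4797 to 4801 in DEG, against 5232 to 5286 in NC. The part of these sums was not tested.

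The compounds were also compared with each other at the same dose of 1 µg/mL, in 3 pairs. POG against RES gave the widest difference: 6 of the 9 genes were lower in POG and none was higher, where 27.9% of all genes tested were called and 14.1% were lower (37.7% called among genes with at least 10 CPM). NLRC5 showed the strongest difference, with a log2 fold change of -0.44 (SE 0.0341, FDR 1.64e-31). B2M (-0.17, FDR 2.75e-07), HLA-C (-0.15, FDR 7.65e-06), HLA-B (-0.15, FDR 2.87e-05), TAP1 (-0.13, FDR 0.000454) and HLA-F (-0.11, FDR 0.0179) followed. The HLA-F call was lost in 4 of 13 alternatives. HLA-E did not differ beyond its error, with an interval of -0.06 to 0.04. TAP2 (-0.10, FDR 0.0914) and TAPBP (0.05, FDR 0.178) did not pass the test either.

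DEG against RES gave 3 genes lower in DEG and none higher, beside 21.2% of all genes called, 10.9% called lower and 29% called among genes with at least 10 CPM. They were NLRC5 (-0.35, FDR 8.77e-16), B2M (-0.15, FDR 0.000153) and HLA-F (-0.13, FDR 0.0162), the last lost in 4 of 12 alternatives. HLA-B (-0.07, 95% interval -0.13 to -0.02, FDR 0.137) and HLA-C (-0.08, interval -0.13 to -0.02, FDR 0.0947) were lower in every DEG library than in every RES library without passing the adjusted threshold. The DEG and RES libraries did not overlap for 48.4% of all genes tested.

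DEG against POG gave 0 of the 9 genes by edgeR's exact test, and also 0 by its quasi-likelihood test and by DESeq2, with 1.07% of all genes and 1.58% of genes with at least 10 CPM called. At an unadjusted p under 0.05 there were 4, all higher in DEG: HLA-B, HLA-C, TAP1 and NLRC5. Their log2 fold changes were 0.08 each, with intervals of 0.02 to 0.13 for HLA-B and HLA-C, 0.01 to 0.14 for TAP1 and 0.0049 to 0.16 for NLRC5. With dispersions taken from these 2 groups alone, 3 of them (HLA-B, HLA-C and TAP1) passed.

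Since a heavy chain needs B2M to leave the endoplasmic reticulum, each gene was also set against B2M within its library, a ratio that no scaling between libraries can move. HLA-B had 117.9 ± 0.106 reads per 100 B2M reads in NC (SD, n = 2), 118.5 ± 2.47 in RES and 120.0 ± 1.35 in POG (n = 3 each). RES overlapped with both NC and POG. It had 106.4 ± 2.57 in PC and 124.7 ± 0.544 in DEG (n = 2 each). HLA-E stood at 23.9 ± 0.199 in NC and 23.3 ± 0.522 in RES, and higher at 27.9 ± 0.298 in PC, 26.0 ± 0.447 in POG and 26.3 ± 0.130 in DEG. In these last groups no library overlapped with NC or RES.

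TAPBP and NLRC5 split the groups differently. TAPBP had 27.2 ± 0.329 reads per 100 B2M reads in NC, 26.8 ± 0.479 in POG and 26.2 ± 0.390 in DEG, but 23.1 ± 0.646 in RES and 23.3 ± 0.822 in PC. NLRC5 had 4.06 ± 0.0621 in NC, 3.95 ± 0.0762 in RES and 4.01 ± 0.399 in PC, but 3.27 ± 0.0138 in POG and 3.42 ± 0.0110 in DEG. PC and RES thus had less TAPBP per B2M, and POG and DEG less NLRC5 per B2M. HLA-F had 5.45 ± 0.231 reads per 100 B2M reads in PC and 7.34 ± 0.384 in NC, and TAP2 had 1.36 ± 0.0113 in RES and 1.48 ± 0.00827 in NC. Neither pair of groups overlapped. With these group sizes a two-sided exact permutation test cannot go below p = 0.1. That value was reached for TAPBP and TAP2 in RES against NC and for NLRC5 in POG against NC, among others. There were 56 such tests, and none could pass a threshold of 0.05.

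**Figure D4:**
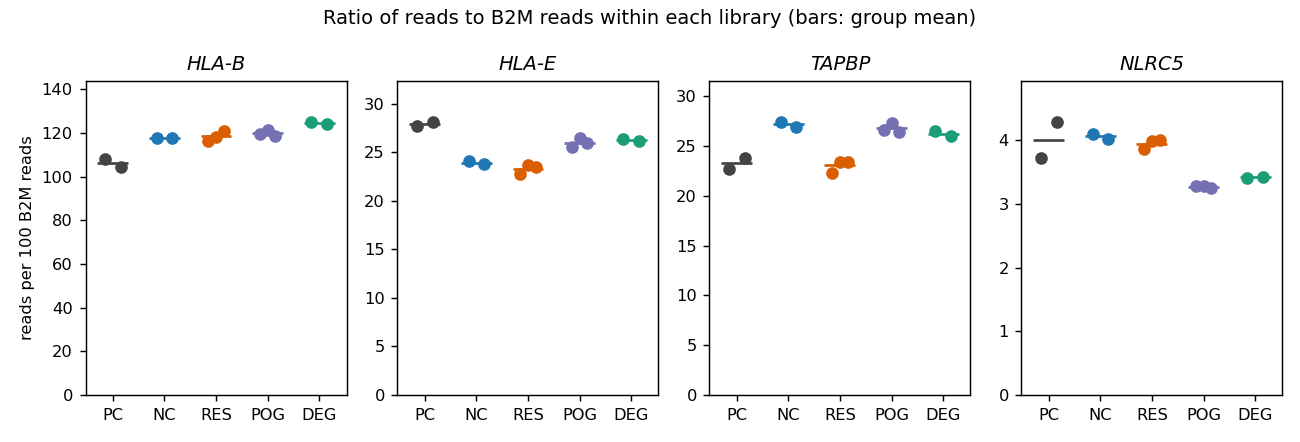
Reads of HLA-B, HLA-E, TAPBP and NLRC5 per 100 B2M reads (y axes from 0) in each library, with bars at the group means. TAPBP is lowest in PC and RES, at 22.3 to 23.8, and NLRC5 in POG and DEG, at 3.26 to 3.43.

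Genes that work beside the 9 were counted in lists. Of 6 genes for peptide trimming and loading, 5 were lower in PC and none higher, beside 20.9% of all genes tested that were lower. With RES, where 11.2% of all genes were called, 1 was higher and 1 lower, and they were the paired trimming enzymes of the endoplasmic reticulum: ERAP2 rose by 0.21 (FDR 0.000214) and ERAP1 had a log2 fold change of -0.15 (FDR 0.00433). ERAP2 had 64.1 to 70.1 CPM in RES and 57.4 to 59.6 in NC, and ERAP1 129 to 137 and 144 to 149.8. Neither pair of groups overlapped, as was so for 40.9% of all genes tested. Against RES, POG had lower ERAP2 (-0.26, FDR 1.32e-08) and higher ERAP1 (0.21, FDR 7.83e-08). Calreticulin (CALR), the chaperone of the loading complex, was lower in PC (-0.11, FDR 0.0101) and higher in POG than in RES (0.15, FDR 1.26e-05).

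Of 5 immunoproteasome genes, 2 were lower in PC (PSMB9 and PSMB10), beside 20.9% of all genes, and 1 was higher with RES, beside 4.94%. None was called for POG or DEG against NC, beside 14.6% and 9.64% of all genes. PSMB9, an interferon-induced catalytic subunit encoded next to TAP1, had 59.0 to 61.8 CPM in RES and 51.6 to 52.1 in NC, a rise of 0.21 (FDR 6.38e-05). PSMB8 did not pass against NC, and was lower in POG (-0.21, FDR 4.59e-06) and DEG (-0.17, FDR 0.00193) than in RES. The 3 constitutive catalytic subunits moved the other way with serum: PSMB5, PSMB6 and PSMB7 all rose in PC, by 0.26, 0.20 and 0.26, beside 21.5% of all genes. None of the 3 was called against NC with a compound, beside 11.2% of all genes for RES, 14.6% for POG and 9.64% for DEG.

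Among 16 interferon receptors and JAK-STAT-IRF factors, 2 were higher and 8 lower in PC, 1 and 2 in RES, 1 and 3 in POG, and 1 and 5 in DEG. Over all genes tested the shares called were 42.4%, 11.2%, 14.6% and 9.64%. STAT2, a transcription factor of type I interferon signaling, rose by 0.09 in RES (FDR 0.0462) and was lower in POG (-0.12, FDR 0.00435), DEG (-0.18, FDR 2.62e-05) and PC (-0.53, FDR 2.00e-47). IRF9 went the other way in RES, at 8.26 to 10.6 CPM against 11.9 to 13.7 in NC. IRF7, which amplifies interferon production, was lower in PC (-0.46, FDR 5.53e-26) and DEG (-0.17, FDR 0.00257) and missed the threshold in POG (-0.10, FDR 0.0507).

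Interferon-stimulated genes, which answer the same signals, were counted as well. Of 28 tested (1 more listed symbol was unmatched), 24 rose with RES and none was lower, with a median log2 fold change of 0.22. In POG 20 were lower (median -0.16), in DEG 24 (median -0.29), with none higher in either, and in PC 19 were lower and 1 higher (median -0.27). The medians over all genes tested lay between -0.0059 and 0.0023 in these comparisons. MX1, an antiviral GTPase, had 454 to 456 CPM in NC, 522 to 525 in RES, 376 to 382 in POG, 339 to 342 in DEG and 357 to 380.4 in PC. IFIT2, which binds viral RNA, had a log2 fold change of 0.30 in RES, -0.85 in POG and -0.69 in DEG. OAS2, a sensor of double-stranded RNA, had 0.30, -0.19 and -0.36. All of these passed the test. In POG and DEG, most of these genes were thus lower while HLA-B, HLA-C, B2M and TAP1 were not called. Over all genes tested, 4.94% were called higher for RES, and 20.9%, 8.6% and 6.11% lower for PC, POG and DEG.

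Of the 8 proteins that form the DNA-bound assembly NLRC5 joins (RFX, NF-Y and CREB/ATF subunits), none was called in POG or DEG against NC. In RES, 1 was higher and 1 lower. Over all genes tested, 14.6% were called for POG, 9.64% for DEG and 11.2% for RES, so these small counts resolve no difference from all genes. NFYA was lower in RES (-0.15, FDR 0.0265) and higher in POG than in RES (0.12, FDR 0.0320), RFX5 was lower in PC (-0.11, FDR 0.0330), and ATF1 was lower in POG than in RES (-0.14, FDR 0.0153). Of the 2 NF-kB subunits of the class I enhancer, NFKB1 was lower in PC (-0.13, FDR 0.00435), and neither was called with a compound against NC. RELA was higher in POG (0.10, FDR 0.0112) and DEG (0.14, FDR 0.00143) than in RES.

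**Figure D5:**
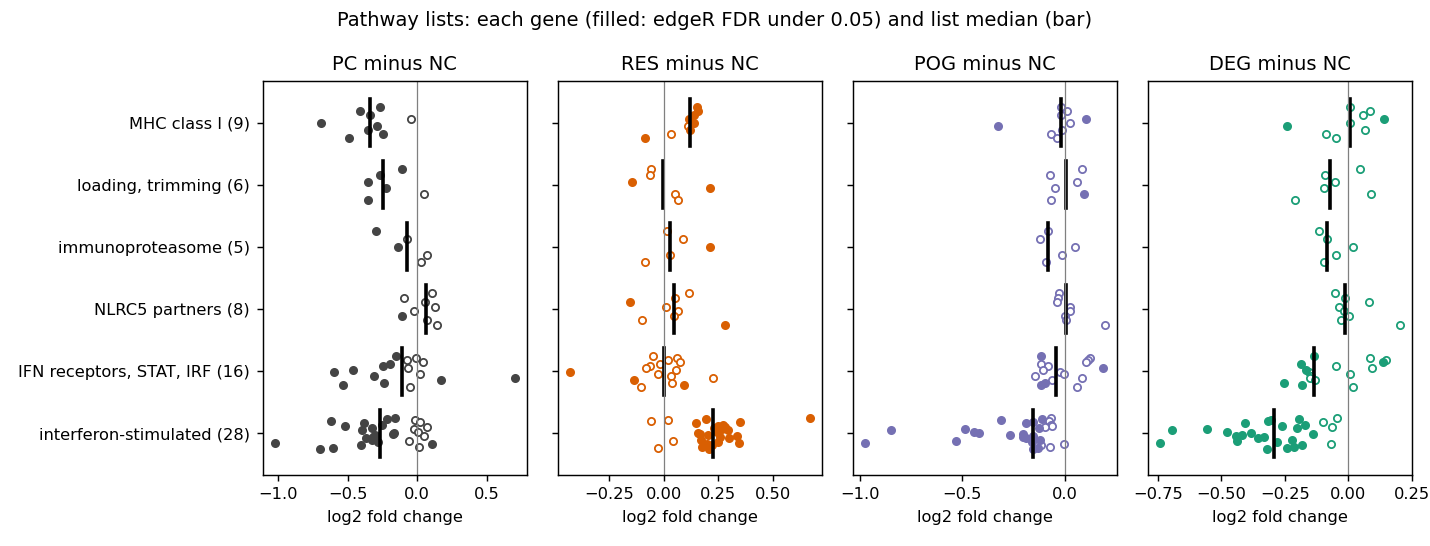
log2 fold change against NC (x axes, with ranges that differ by panel) of each gene in 6 lists, with 1 point per gene, filled where the edgeR FDR is under 0.05, and a bar at the list median. The interferon-stimulated genes have medians of -0.27 in PC, 0.22 in RES, -0.16 in POG and -0.29 in DEG, while the medians of the class I genes are -0.34, 0.12, -0.02 and 0.01.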

How the data were processed

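The authors deposited raw counts of reads on each gene, without normalization, for mRNA-seq libraries made with a poly-A, strand-selecting kit and sequenced as read pairs. Per the labels and the study's methods, reads were aligned to hg38 with STAR (BWA MEM is also named) and counted on Ensembl genes with featureCounts, and edgeR's exact test was used. Program versions, annotation release, strand setting and the treatment of multi-mapped reads are not given in the sources used here.

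Groups came from the labelled treatment. The table had 12 columns for 13 labelled samples. Counts were scaled by TMM, filtered with filterByExpr (17092 genes left, 99.967% of reads) and tested with edgeR 4.0.16 in R 4.3.3: exact test, tagwise dispersions over all 12 libraries, Benjamini-Hochberg adjustment over all genes tested, threshold 0.05. Standard errors and 95% intervals came from the quasi-likelihood fit. CPM values use TMM-scaled totals, except marker sums and the HLA-B level set beside them (plain totals). Levels per kb use GENCODE v44 exon lengths. Ratios to B2M were compared by exact permutation tests. The code was tested on simulated data. Alternatives were the quasi-likelihood test, DESeq2 1.42.0, its size factors, plain totals, no filter, a minimum mean of 1 CPM, dispersions from the 2 groups compared and leaving out each library.

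Named genes were the 9 genes, and from each list at most 3 called in the most comparisons, ties going to the higher mean CPM, with others named where a count was 5 or fewer, chosen after their values were seen. The genes, lists and tests were chosen with earlier results of these data known. Some genes chosen by these rules are not reported here.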

Additional observations from a re-analysis of the deposited data

How the results depend on the processing

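Of 747 values recomputed for the 9 genes over the 7 comparisons, 686 kept their direction and their side of the threshold, 33 were no longer called, 15 became called and 13 changed sign, none of them a called gene and none past 0.03 in size. Counts of genes called were within 1.5 times the reported ones under the other tools, scalings and filters. With dispersions from the 2 groups compared, the count went from 2 to 4 for DEG against NC, from 3 to 5 for DEG against RES and from 0 to 3 for DEG against POG, and the cause was not tested. Leaving out 1 library gave 1 to 6 genes for RES against NC (7 reported), 1 to 2 for POG against NC and 1 to 2 for DEG against NC, the lowest with NC replicate 1 left out, which leaves 1 NC library assumed to vary like the other groups. POG against NC also had 1 without NC replicate 2, POG replicate 2 or POG replicate 3, and DEG against NC 1 without DEG replicate 2. With plain library totals, POG against NC turned to 0.0089 for HLA-C, 0.0084 for B2M and 0.014 for TAP1. Leaving out 1 library turned the sign of uncalled values, whose ranges were -0.016 to 0.030 for B2M in DEG against NC, -0.036 to 0.0082 for B2M in POG against NC, -0.0099 to 0.033 for HLA-B in POG against NC, -0.073 to 0.00051 for HLA-E in PC against NC, -0.020 to 0.041 for HLA-F in DEG against NC, -0.035 to 0.0032 for HLA-F in DEG against POG, -0.00068 to 0.062 for HLA-F in POG against NC, -0.043 to 0.027 for TAP1 in POG against NC and -0.060 to 0.0076 for TAP2 in DEG against POG. No paired analysis was possible because the labels carry no replicate numbers that pair libraries across groups. TAP2, the least abundant of the 9 genes, rested on 1166 to 1508 reads per library and had the widest intervals.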

Other observations

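Other class I-like genes were counted in a list of 13, of which 11 were tested. It holds ligands of the natural killer receptor NKG2D, which need no B2M, and molecules that pair with B2M, such as HFE and FCGRT. In PC 7 of the 11 were lower and none was higher, beside 20.9% of all genes tested that were lower. MICB, an NKG2D ligand, had 106 to 112 CPM in PC, 189 to 197 in NC, 189.9 to 192 in RES, 210.3 to 216 in POG and 209 to 215 in DEG. Its log2 fold change against NC by edgeR's exact test was -0.82 in PC (FDR 1.12e-91), -0.01 in RES (FDR 0.889), 0.15 in POG (FDR 0.000763) and 0.14 in DEG (FDR 0.00844). MICA, its close relative, was lower in PC (-0.52, FDR 1.24e-25) and had 0.12 in DEG (FDR 0.0810). ULBP2 was lower in PC (-0.59, FDR 1.04e-14) and higher in POG (0.26, FDR 0.000987), with 0.20 in DEG (FDR 0.0537). In RES none of the 11 was called, beside 11.2% of all genes tested.

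The MHC class II genes, normally kept to professional antigen-presenting cells, were low and unequal. HLA-DPB1 averaged 14.1 CPM over the libraries, CD74 6.43 and HLA-DPA1 4.84, while HLA-DRA had 12 reads and HLA-DRB1 1 read over all 12 libraries, and CIITA, the class II transactivator and a relative of NLRC5, had 742. Of 12 listed genes 6 were tested. CD74, the invariant chain, was at 5.15 to 6.33 CPM in NC and 6.95 to 9.06 in RES, a rise of 0.51 (FDR 0.00117), and was lower in PC (-0.33, FDR 0.0491). HLA-DPB1 was higher in PC (0.21, FDR 0.0396). None of the 6 was called in POG or DEG against NC, beside 14.6% and 9.64% of all genes tested.

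Across the 12 libraries, which share groups and scaling, the log2 CPM of the 36 pairs among the 9 genes had a median Pearson r of 0.856, from 0.068 for HLA-E with NLRC5 to 0.994 for HLA-B with HLA-C. Without the PC libraries the median was 0.551, and HLA-B with TAPBP went from 0.876 to -0.831. Within groups the median was 0.0801. Among 9903 other genes with at least 10 CPM, NEU1 (r = 0.991), a lysosomal sialidase encoded in the MHC region, and PTN (0.987) were most like HLA-B. SPINT1 (0.976), GLB1 (0.976) and NPR2 (0.972) were most like B2M, and NEU1 (0.983), COL8A2 (0.980) and RBM5 (0.980) most like TAP1.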
